A study of Sparus aurata with 9 samples.

Results

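AMP-activated protein kinase (AMPK) is described here by the gene models that encode its subunits in white muscle of gilthead seabream (Sparus aurata). Its members were all gene models whose description in the deposited tables holds both AMP-activated and kinase, which gave 38 of 61849 gene models. The rule named 1 of them, Sa_29221.2.1 (gamma-1-like), because the study had listed it among its differentially expressed genes at 1 BL s-1, so its values in that comparison are no independent evidence. White skeletal muscle was taken from 9 fish of 1 commercial farm after 8 months in tanks, 3 fish at minimal water flow (the controls), 3 fish that swam at 1 BL s-1 (BL, body length) and 3 fish that swam at 2 BL s-1. All fish were wild-type farmed animals, and no agent was given as a treatment. According to the paper the fish were euthanized with an overdose of MS222 at sampling, and the sequenced fish were of similar size and normal morphology. Because there was 1 tank for each condition, speed and tank cannot be told apart. The age of the fish is not given in the sources used here.

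AMPK is a sensor of the energy state of the cell and works as a complex of 3 subunits. The alpha subunit is the kinase, the beta subunit is the scaffold that also binds glycogen, and the gamma subunit binds AMP, ADP and ATP and so reads the energy charge. When ATP is used up, as in contracting muscle, the kinase is activated by phosphorylation and turns on glucose uptake and fatty acid oxidation while it slows protein synthesis. Activity is set mostly by nucleotides and phosphorylation, which counts of mRNA do not measure. In mammals the gamma-3 isoform is typical of fast glycolytic muscle.

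Counts of the enzyme in these fish came almost wholly from gamma-1 type gene models. Over the 9 fish the 38 gene models held 2789 counts, or 70.2 of every 1000000 counts. The 24 models described as gamma held 2570 of these counts (92.1%), the 5 described as alpha held 205 (7.35%) and the 9 described as beta held 14 (0.502%). A count is a number of aligned fragments and grows with the length of the transcript, and no length of these gene models was at hand, so that these numbers do not rank the subunits by level. Among the gamma models all counts fell on those described as gamma-1 or gamma-1-like, and none on the 4 described as gamma-2-like. No description names gamma-3. RefSeq lists 7 AMPK subunit symbols for the assembly fSpaAur1.1 (prkaa1, prkaa2, prkab1a, prkab2, prkag1, prkag3a and prkag3b), and the gene models were not matched to these.

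Only 10 of the 38 gene models had a count in any fish, and having a count went with how the models are split in the tables. Identifiers such as Sa_32115.1.1 to Sa_32115.1.7 share all but their last field, here called a stem, and the 38 models have 11 stems. Of the 18463 gene models in the tables with a stem of their own, 60.4% had a count. Of the 43386 that share a stem with others, 7.62% had one. Among AMPK models these were 3 of 4 and 7 of 34. The 7 beta-2-like models with 0 counts share 1 stem, so their 0 cannot be read as absence of beta-2 mRNA. The same limit holds for the 4 gamma-2-like models with 0 counts, on 2 shared stems, and for the 4 alpha-2 models, on 1 stem. A count of 0 in 39747691 counts allows up to 0.0755 in 1000000 (a floor of 3 counts over the 9 fish), which covers counting error only. Why models that share a stem have few counts was not tested.

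The libraries held between 3660245 and 5267310 counts. Fish 3 at 1 BL s-1 stood apart on the leading principal component, which held 30.8% of the variance. Its score was 53.6, and the other fish scored between -15.0 and -0.41. This fish had counts in 7780 gene models, the others in 8721 to 9718. Fast muscle genes (fast myosin, troponin and parvalbumin type models, 88 in the list, 53 with a count) took 15.4% to 19.3% of the counts of every fish. The list of slow and red muscle (35 models, 14 with a count) held 985 counts in fish 2 at 2 BL s-1 and between 7 and 66 in the others. A heart list (45 models, 15 with a count) held 389 counts in this same fish and between 36 and 78 in the others. The list of red blood cells (13 models, 4 with a count) held 346, 257 and 736 counts at 1 BL s-1, 113 to 261 in the control fish and 133 to 385 at 2 BL s-1, nearly all from hemoglobin subunit alpha-A. The list of liver and plasma (57 models, 12 with a count) held 52 and 28 counts in fish 2 and 3 at 1 BL s-1 and between 0 and 9 in the others. The list of skin and epithelium (79 models, 31 with a count), mostly mucin-17-like, took 0.0259% to 0.0346% of the counts at 2 BL s-1, 0.0166% to 0.0255% in the controls and 0.0173% to 0.0236% at 1 BL s-1. The list of leukocytes (299 models, 64 with a count) took 0.154% of the counts in fish 3 at 1 BL s-1 and 0.227% to 0.305% in the others. In bulk muscle, fewer cells of a type and less RNA per cell cannot be told apart.

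The gamma-1-like model Sa_29221.2.1 was highest in the fish at 1 BL s-1. It had 22.4, 18.7 and 14.2 normalized counts in control fish 1, 2 and 3, where a normalized count is a count divided by a scaling factor for the sequencing effort in that fish (TMM, scaled to a geometric mean of 1 over the 9 fish). At 1 BL s-1 the fish had 24.4, 55.9 and 63.3, and at 2 BL s-1 12.3, 13 and 36.6. Fish 3 at 1 BL s-1 had the lowest scaling factor (0.774, the others 0.909 to 1.15). Its raw count of 49 was below the 55 of fish 2 at 1 BL s-1. All 3 fish at 1 BL s-1 were above all 3 controls (as in 6.05% of gene models tested), fish 1 by little, and the fish at 2 BL s-1 overlapped with both groups. The group means were 18.4 ± 4.11, 47.9 ± 20.7 and 20.6 ± 13.9 (SD, n = 3 fish each). The log2 fold change of 1 BL s-1 against the controls was 1.36 (standard error, SE, 0.42), a 2.56-fold difference, and it lay between 1.11 and 1.67 with any one of the 6 fish left out. Without fish 3 at 1 BL s-1, the fish that stood apart, it was 1.11. The red blood cell list separated the same groups, with 0.00604% to 0.0176% of the counts in the fish at 1 BL s-1 and 0.00285% to 0.00496% in the controls, and the liver and plasma list was highest in fish 2 and 3 at 1 BL s-1, as was this model. The part of these cells in the difference was not tested. The study called this model on these same fish, and its adjusted p here was 0.966 by edgeR (0.227 to 1.00 over 12 alternatives).

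At 2 BL s-1 the same model was near the control level, with a log2 fold change of 0.18 (SE 0.48, adjusted p = 0.996 by edgeR). This value rested on fish 3 at 2 BL s-1 and was -0.54 without it. At 2 BL s-1 its level was 0.442 of that at 1 BL s-1 (log2 fold change -1.18, SE 0.51). This comparison uses the same 3 fish at 1 BL s-1 whose high values had brought the model into the study's list, so that a lower level at 2 BL s-1 is a description and no independent evidence. It passed the unadjusted threshold with all 6 fish, and did not without fish 2 or 3 at 1 BL s-1 (-1.06 and -0.95) and without fish 1 or 2 at 2 BL s-1 (-0.92 and -0.95). The 2 comparisons with the controls share the same 3 control fish. Along the order of flow from controls to 2 BL s-1, its slope was 0.07 per step (SE 0.36, adjusted p = 1 by edgeR, rounded), and its group means were not ordered by speed.

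**Figure D1:**
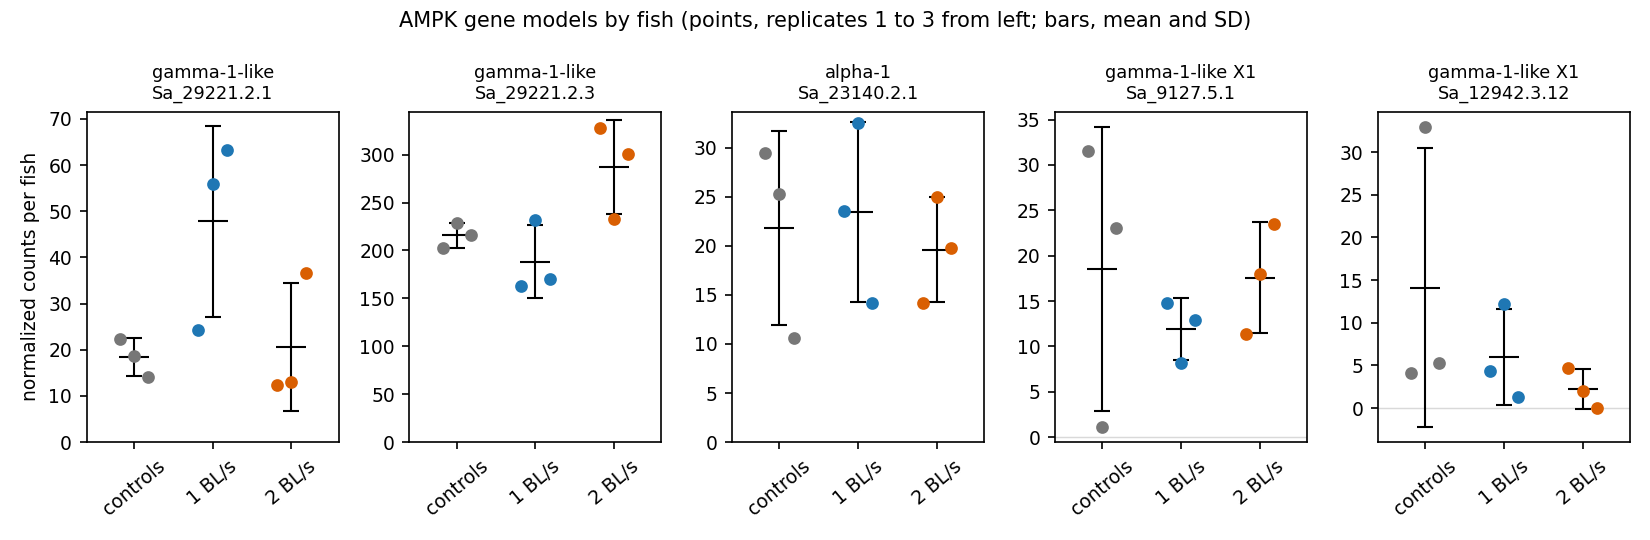
Normalized counts (y axis, a scale for each panel) of 5 AMPK gene models in each fish of the controls, 1 BL s-1 and 2 BL s-1 groups (x axis). Points are fish, replicates 1 to 3 from the left, and bars show the mean and SD of 3 fish. Sa_29221.2.1 is highest in fish 2 and 3 at 1 BL s-1 (55.9 and 63.3), and Sa_29221.2.3 in fish 1 and 3 at 2 BL s-1 (328 and 301).

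A further model of the same stem and description, Sa_29221.2.3, held most of the AMPK counts and was highest at 2 BL s-1. Its normalized counts were 202, 229 and 216 in the control fish, 163, 232 and 171 at 1 BL s-1 and 328, 233 and 301 at 2 BL s-1. The 3 fish at 2 BL s-1 were above all other 6, although fish 2 at 2 BL s-1 (233) barely exceeded fish 2 at 1 BL s-1 (232). Such a separation between the speeds in this direction was found in 5.1% of gene models tested. The model rose from 188 ± 37.8 at 1 BL s-1 to 287 ± 48.6 at 2 BL s-1 (SD, n = 3 fish each), a 1.54-fold difference (log2 fold change 0.62, SE 0.24, unadjusted p = 0.0310, adjusted p = 0.897 by edgeR). This call did not hold with DESeq2 (0.59), without fish 1 or 3 at 1 BL s-1 (0.51 and 0.54) or without fish 1 or 3 at 2 BL s-1 (0.51 and 0.58). Compared with the controls (216 ± 13.3), the log2 fold change at 2 BL s-1 was 0.42 (SE 0.21, adjusted p = 0.996 by edgeR) and passed the unadjusted threshold of 0.05 only when fish 2 at 2 BL s-1 was left out (0.54), the fish with 985 counts of the slow and red muscle list. At 1 BL s-1 it was -0.20 (SE 0.23). The skin and epithelium list was likewise higher in all 3 fish at 2 BL s-1 than in the other 6. The margin was small, 0.0259% in fish 1 at 2 BL s-1 against 0.0255% in control fish 1. An adipocyte list (10 models, 1 with a count) took 0.000673% to 0.00112% of the counts at 2 BL s-1 and 0.000287% to 0.000581% at 1 BL s-1. In the controls it took 0.000579% to 0.000747%. The part of either list in the level of Sa_29221.2.3 was not tested. In Sa_29221.2.3 all fish of the faster group lay above the controls. This separation was found in 4.36% of the 3947 gene models tested in that comparison (9.75% did not overlap in either direction).

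Within this pair of models, the share of Sa_29221.2.1 was highest at the lower speed. It took 9.95%, 7.56% and 6.15% of the counts of the pair in the control fish, 13%, 19.4% and 27.1% at 1 BL s-1 and 3.61%, 5.26% and 10.9% at 2 BL s-1. Every fish at 1 BL s-1 was thus above the other 6, and the controls and the fish at 2 BL s-1 overlapped. The exact 95% Clopper-Pearson intervals of the lowest fish at 1 BL s-1 (8.83% to 18.3%) and of the highest control (6.34% to 14.7%) overlapped too. A share is free of differences in sequencing effort between fish. The sum of both models was 234 ± 11.9 normalized counts in the control fish, 236 ± 50.3 at 1 BL s-1 and 308 ± 53.3 at 2 BL s-1 (SD, n = 3 fish each). Whether the models are transcripts of 1 gene is not stated in the sources used here, and models with shared sequence may split reads between them, so the division is uncertain. The share rests on the model that the study had listed and was given no test.

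**Figure D2:**
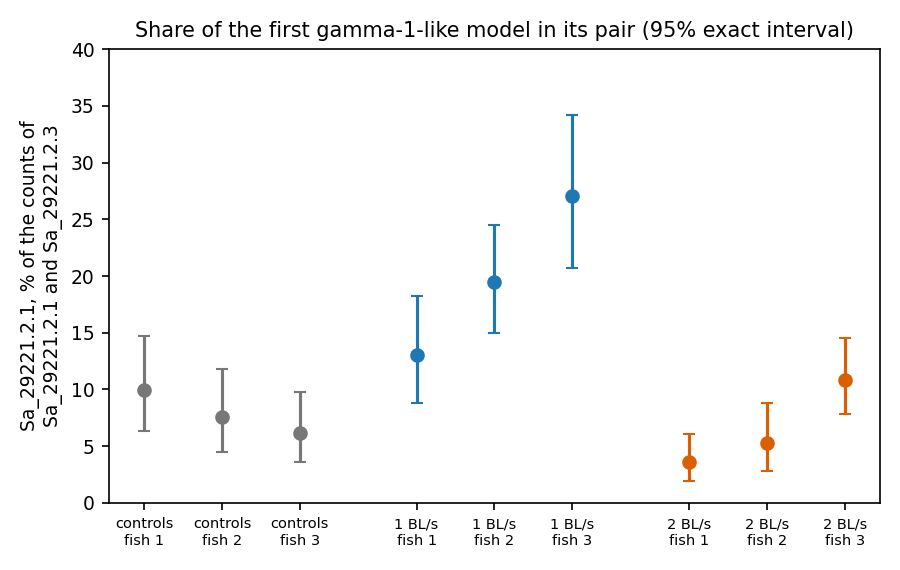
Share (y axis, %) of Sa_29221.2.1 in the counts of Sa_29221.2.1 and Sa_29221.2.3 for each fish (x axis, 3 fish per group). Points are fish and bars are exact 95% intervals of counting error, and the fish at 1 BL s-1 lie between 13% and 27.1% where the others lie between 3.61% and 10.9%.

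The models described as gamma-1-like isoform X1 varied among single fish in a different way. Sa_9127.5.1 had 31, 1 and 26 counts in the control fish, 17, 8 and 10 at 1 BL s-1 and 12, 18 and 25 at 2 BL s-1. Sa_12942.3.12, of another stem, had 4, 30 and 6 counts in the control fish, 5, 12 and 1 at 1 BL s-1 and 5, 2 and 0 at 2 BL s-1. Control fish 2 had nearly all of its counts on Sa_12942.3.12 (30 of 31, 96.8%, exact 95% interval 83.3% to 99.9%), where control fish 1 had 4 of 35 (11.4%, 3.20% to 26.7%). Fish 2 at 1 BL s-1 also had more counts on Sa_12942.3.12 than on Sa_9127.5.1 (12 of 20), and the other 7 fish had fewer.

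The sum of Sa_9127.5.1 and Sa_12942.3.12, formed after their counts had been seen, is given as a description only. It was 35.6, 34.1 and 28.3 normalized counts in the control fish, 19.1, 20.3 and 14.2 at 1 BL s-1 and 16.0, 19.9 and 23.5 at 2 BL s-1. The lowest control (28.3) was above the highest swimming fish (23.5). The group means were 32.7 ± 3.83, 17.9 ± 3.25 and 19.8 ± 3.72 (SD, n = 3 fish each). Each of these models alone overlapped between the controls and the swimming fish. The sum was therefore not tested, and it stands on 11 to 35 counts per fish. It leaves out Sa_12942.3.9, also described as isoform X1, which had 6 counts in all. For a single gene model, all fish of the 1 BL s-1 group were below all controls in 4.92% of those tested, and all fish of the 2 BL s-1 group in 5.4%. These shares are for single models and are no background for the sum. No share was computed for sums of models or for the controls against all swimming fish.

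**Figure D3:**
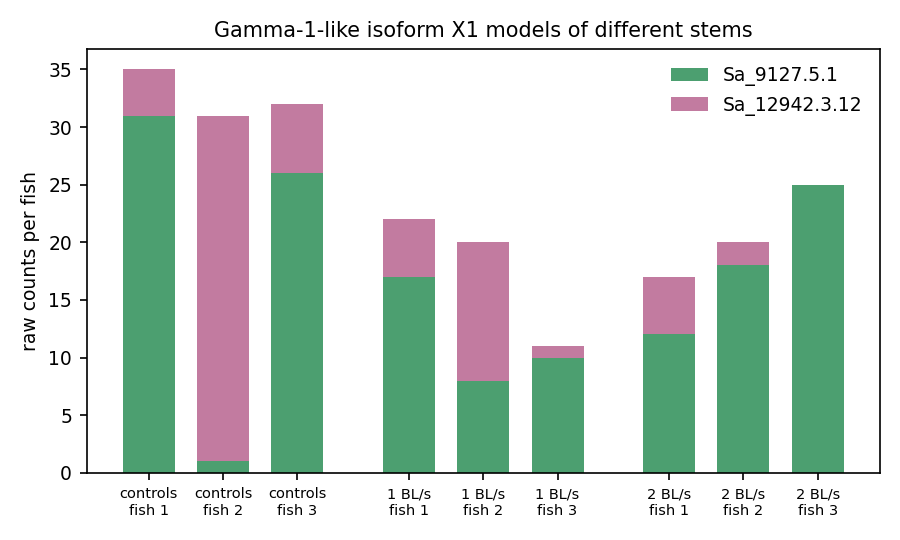
Raw counts (y axis) of the gamma-1-like isoform X1 models Sa_9127.5.1 (lower part of each bar) and Sa_12942.3.12 (upper part) in each fish (x axis, 3 fish per group). The bars are sums formed after the counts had been seen. They reach 31 to 35 counts in the controls and 11 to 25 in the swimming fish. In control fish 2 nearly the whole bar is Sa_12942.3.12.

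Sa_9127.5.1 alone passed no test, with log2 fold changes of -0.65 (SE 0.76) at 1 BL s-1 and -0.09 (0.70) at 2 BL s-1 vs. controls. Without control fish 2, its log2 fold change at 1 BL s-1 was -1.19 and passed the unadjusted threshold (unadjusted p = 0.0232, adjusted p = 0.996 by edgeR). That at 2 BL s-1 was -0.63 (unadjusted p = 0.150 by edgeR) and did not. Control fish 2 is the control with the lowest value of this same model, so the value without it is a description only. At 1 BL s-1 it passed with no other fish left out. Sa_12942.3.12 had too few counts to be tested. With the filter on low counts taken away, it was lower at 2 BL s-1 vs. controls (log2 fold change -2.57, adjusted p = 0.0470 by edgeR). Its counts were 4, 30 and 6 in control fish 1, 2 and 3 and 5, 2 and 0 at 2 BL s-1. The groups overlapped and the result includes the 30 counts of control fish 2. This adjusted p is therefore not read as a call for Sa_12942.3.12. A further isoform X1 model of its stem, Sa_12942.3.9, had 6 counts in all. The other 10 models of the stem had 0 counts.

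The catalytic subunits showed no call in any comparison. Alpha-1 (Sa_23140.2.1) had 29.5, 25.3 and 10.6 normalized counts in the control fish, 23.5, 32.5 and 14.2 at 1 BL s-1 and 14.2, 24.9 and 19.7 at 2 BL s-1. The groups overlapped throughout, with means of 21.8 ± 9.90, 23.4 ± 9.16 and 19.6 ± 5.38 (SD, n = 3 fish each). For alpha-1 the log2 fold change was 0.12 (SE 0.47) at 1 BL s-1 vs. controls, -0.14 (0.43) at 2 BL s-1 vs. controls and -0.26 (0.40) at 2 vs. 1 BL s-1, each difference being smaller than its SE. Alpha-2, the catalytic isoform that prevails in mammalian skeletal muscle, had 10 counts over its 4 models. These were 3 counts in the control fish, 2 at 1 BL s-1 and 5 at 2 BL s-1, too few for a comparison. The 4 models share 1 stem, so their few counts cannot be read as a low level of alpha-2 mRNA.

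The scaffold subunits were barely counted. The beta-1-like model Sa_33947.1.1 had 0, 0 and 5 counts in the control fish, 2, 0 and 0 at 1 BL s-1 and 0, 3 and 4 at 2 BL s-1. The beta-1 model Sa_31107.2.1 has a stem of its own and had 0 counts in all 9 fish. The 7 beta-2-like models had 0 counts and share 1 stem, with the limit given above. No difference in a beta subunit was detectable with these counts.

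Among the subunits tested with all fish, calls were thus limited to the gamma-1-like pair. At 1 BL s-1 vs. controls 1 of 4 AMPK models tested was higher (the study's own Sa_29221.2.1) and 0 were lower, where 4.02% of all 3902 gene models tested passed the unadjusted threshold, 1.97% higher and 2.05% lower. At 2 BL s-1 vs. controls 0 of 4 passed by edgeR, DESeq2 or limma-trend, against a background of 4.46% of 3947 gene models, 1.75% higher and 2.71% lower. At 2 vs. 1 BL s-1 1 of 4 was higher and 1 lower (again the study's Sa_29221.2.1), against 4.24% of 3963, 1.97% higher and 2.27% lower. Along the order of flow 0 of 4 passed by edgeR, DESeq2 or limma-trend, against 3.44% of 4241, 1.7% higher and 1.74% lower. The median log2 fold change of the 4 was -0.04, 0.04 and 0.15 in the 3 pairwise comparisons, beside -0.01, -0.00043 and 0.03 over all gene models tested. No AMPK model and no other gene model passed an adjusted p of 0.05 by edgeR, with 157, 176 and 168 gene models below an unadjusted 0.05. Without the filter on low counts 47, 92 and 72 gene models passed it. The unadjusted threshold is the one the study chose for its comparisons.

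**Figure D4:**
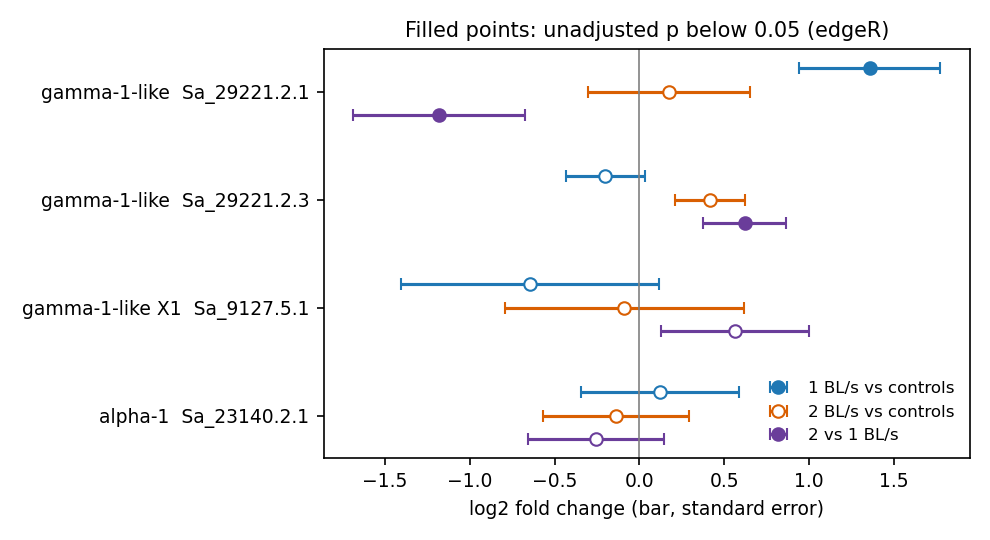
Log2 fold changes (x axis) of the 4 AMPK gene models tested by edgeR (y axis) in the 3 pairwise comparisons (colours), with standard errors as bars and filled points where the unadjusted p was below 0.05. Sa_29221.2.1 lies at 1.36 for 1 BL s-1 vs. controls and at -1.18 for 2 vs. 1 BL s-1, and Sa_29221.2.3 at 0.62 for 2 vs. 1 BL s-1.

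The genes whose counts ran most like Sa_29221.2.1 over the 9 fish were not AMPK subunits. By Pearson's r of log2 values over 9 fish, the nearest of 4240 gene models were a model of elongation factor 1-alpha of translation (Sa_23853.11.8, 0.93), the digestive protease chymotrypsin B-like (0.92), the focal adhesion protein zyxin (0.91), prothymosin alpha-B-like (0.90) and ras-related C3 botulinum toxin substrate 2 (0.90), a small GTPase of leukocytes in mammals. Each of these 5 was highest in fish 3 at 1 BL s-1, the fish that stood apart. Chymotrypsin B-like had 220 normalized counts there, 12.2 and 38.6 in the other fish at 1 BL s-1 and 0.944 to 21.6 in the other groups. The study had also listed ras-related C3 botulinum toxin substrate 2 at 1 BL s-1, so its likeness is no independent evidence. The leukocyte list was lowest in fish 3 at 1 BL s-1 (0.154% of the counts), and its bearing on this likeness was not tested. The part of this fish's composition in the level of Sa_29221.2.1 was not tested, beyond the value without it given above. The likeness to the other tested subunits was low, with r = 0.22 for alpha-1, -0.04 for Sa_9127.5.1 and -0.33 for Sa_29221.2.3.

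The network around the kinase had few calls, too few for their directions to be read as a trait of the network. A list of 8 roles upstream and downstream of AMPK held 445 gene models, of which 126 had a count and 35 to 37 were tested in a pairwise comparison. At 1 BL s-1 vs. controls 0 of 35 were higher and 2 lower, where 4.02% of all gene models passed (1.97% higher, 2.05% lower). At 2 BL s-1 vs. controls 0 of 37 were higher and 3 lower, against 4.46% (1.75% higher, 2.71% lower). At 2 vs. 1 BL s-1 2 of 36 were higher and 2 lower, against 4.24% (1.97% higher, 2.27% lower). Along the order of flow 0 of 38 were higher and 2 lower, against 3.44% (1.7% higher, 1.74% lower). PGC-1alpha had a slope of -1.01 per step (SE 0.33), which was -0.35 without control fish 2 and -0.69 with limma-trend and passed in neither. MAP microtubule affinity-regulating kinase 3 isoform X3 had a slope of -0.37 (SE 0.15) and passed in 9 of 14 alternatives, not without control fish 3 or any one fish at 2 BL s-1, nor without the filter on low counts. The median log2 fold changes of the list were -0.26, -0.03 and 0.17 in the pairwise comparisons, beside -0.01, -0.00043 and 0.03 over all gene models tested.

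Upstream of AMPK, the LKB1 complex phosphorylates the alpha subunit together with its scaffold MO25. Calcium-binding 39 (MO25), the most abundant of 5 tested models of this role, had means of 88.0, 73.8 and 82.4 normalized counts in controls, 1 BL s-1 and 2 BL s-1 and overlapped between groups. The kinase STK11 (LKB1) itself, named for its role and outside the naming rule, had log2 fold changes of -0.15 (SE 0.43) and -0.32 (0.31) vs. controls. None of the 5 models passed in any comparison.

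Of the regulators and targets in growth and autophagy, sestrin-3-like differed between the speeds. Sestrins are stress proteins that in mammals activate AMPK and restrain mTORC1. The model had 609, 1211 and 919 normalized counts in the control fish, 607, 520.5 and 659 at 1 BL s-1 and 1445, 1009 and 758 at 2 BL s-1. All fish at 2 BL s-1 were above all those of the slower group (as in 5.1% of gene models tested), and the control values overlapped with both. It rose from 1 to 2 BL s-1 (log2 fold change 0.86, SE 0.26, adjusted p = 0.897 by edgeR), which held in all 12 alternatives at the unadjusted threshold. It was lower at 1 BL s-1 than in the controls (-0.62, SE 0.27), a call that held in 4 of 12 alternatives, and was lost with DESeq2, with limma-trend and without control fish 2 or 3 or fish 1 or 2 at 1 BL s-1.

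Hamartin-like isoform X1 (Sa_31945.3.1) is a subunit of the TSC complex that restrains mTORC1. It fell at 1 BL s-1 from 41.2 to 22.4 normalized counts (log2 fold change -0.88, SE 0.37), in 6 of 12 alternatives. The groups overlapped, with 28.7 in fish 1 at 1 BL s-1 and 26.4 in control fish 2. The more abundant hamartin-like model Sa_31945.2.1 was not called in this comparison (-0.37, SE 0.26). Beclin 1-associated autophagy-related key regulator (Sa_18868.3.2), a factor of autophagosome formation, rose from 15.5 at 1 BL s-1 to 31.3 at 2 BL s-1 (1.02, SE 0.35), and lost the call without fish 1 of either group. All 9 models of this role tested at 1 BL s-1 lay below 0 against the controls (median -0.62, beside -0.01 over all gene models), with 2 past the threshold that 4.02% of all gene models passed. All 10 tested at 2 vs. 1 BL s-1 lay above 0 (median 0.60, beside 0.03), with 2 past it, against 4.24%. Without fish 3 at 1 BL s-1 these medians were -0.40 and 0.24, and without control fish 2 the first was -0.44. That fish at 1 BL s-1 was the lowest of all fish in mTOR (7.75 normalized counts) and in both tuberin models (28.4 and 10.3). Hamartin-like Sa_31945.2.1 had 112, 119 and 135 in the control fish. It had 99.2 and 113 in the other fish at 1 BL s-1 and 96.3, 129 and 81.7 at 2 BL s-1. The share of all gene models below or above 0 is not given here, so the common direction is a description only. Both comparisons share the fish at 1 BL s-1. Tuberin and hamartin-like isoform X1 each stand for 2 of these models, so the models are not separate genes throughout.

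Among transcriptional coregulators, PGC-1alpha (peroxisome proliferator-activated receptor gamma coactivator 1-alpha isoform X3), which drives mitochondrial biogenesis downstream of AMPK, was lowest at 2 BL s-1. It had 18.3, 219 and 50.5 normalized counts in the control fish, 57.4, 45.7 and 46.5 at 1 BL s-1 and 30.2, 12 and 27.2 at 2 BL s-1. All fish at 2 BL s-1 were below all fish at 1 BL s-1 (as in 5.83% of gene models tested), and the controls (18.3 to 219) overlapped with both groups. It fell from 1 to 2 BL s-1 (log2 fold change -1.09, SE 0.36, adjusted p = 0.897 by edgeR), in 11 of 12 alternatives. Its fall vs. controls (-2.03, SE 0.77) rested on control fish 2 and did not pass without it (-0.58), nor with limma-trend or without fish 2 at 2 BL s-1. Its adjusted p in that comparison was 5.99e-07 without the filter on low counts and at least 0.573 in the other alternatives. Without the filter the SE was 0.34, although the controls ranged from 18.3 to 219, so this adjusted p is not read as a call. Of 3 or 4 coregulators tested in a comparison no other passed.

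Of the enzymes that set the levels of AMP and ATP, mitochondrial adenylate kinase (Sa_255.1.1), which interconverts adenine nucleotides, fell at 2 BL s-1. It had 64.0, 95.7 and 130 normalized counts in the control fish, 81.8, 79.3 and 152 at 1 BL s-1 and 50.0, 63.8 and 55.4 at 2 BL s-1. All fish at 2 BL s-1 were below all other fish, control fish 1 being the nearest. Of all gene models tested, 5.4% separated this way from the controls and 5.83% from the fish at 1 BL s-1. The log2 fold change was -0.77 (SE 0.29, adjusted p = 0.996 by edgeR) vs. controls and -0.86 (0.31, adjusted p = 0.897) vs. 1 BL s-1, each call being lost without fish 1 or without fish 3 at 2 BL s-1, the first without control fish 3 and the last without fish 3 at 1 BL s-1. Adenylosuccinate synthetase isozyme 1, of the purine nucleotide cycle and the most abundant of this role, had means of 7566, 7392 and 7597 normalized counts.

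Among kinases related to AMPK, MAP microtubule affinity-regulating kinase 3 isoform X3 fell at 2 BL s-1 vs. controls (37.6 to 22.3 normalized counts, log2 fold change -0.75, SE 0.31), a call that held in 5 of 12 alternatives and was lost with DESeq2 and without any one of the 6 fish other than control fish 2. The model described as MAP microtubule affinity-regulating kinase 4 isoform X4 (Sa_50943.1.1) held 950027 counts and passed in no comparison, and its description was not checked against sequence. Targets in lipid and glucose metabolism and mitochondrial dynamics had no call. The muscle isoform of carnitine O-palmitoyltransferase, which admits fatty acids to mitochondria, had means of 676, 546 and 599 normalized counts. Thioredoxin-interacting, a brake on glucose uptake that AMPK removes in mammals, had 1007, 536 and 574, with 275, 1751 and 994 in the single controls. Mitofusin-2 (Sa_32947.3.1) had 13.8, 14.7 and 13.6.

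**Figure D5:**
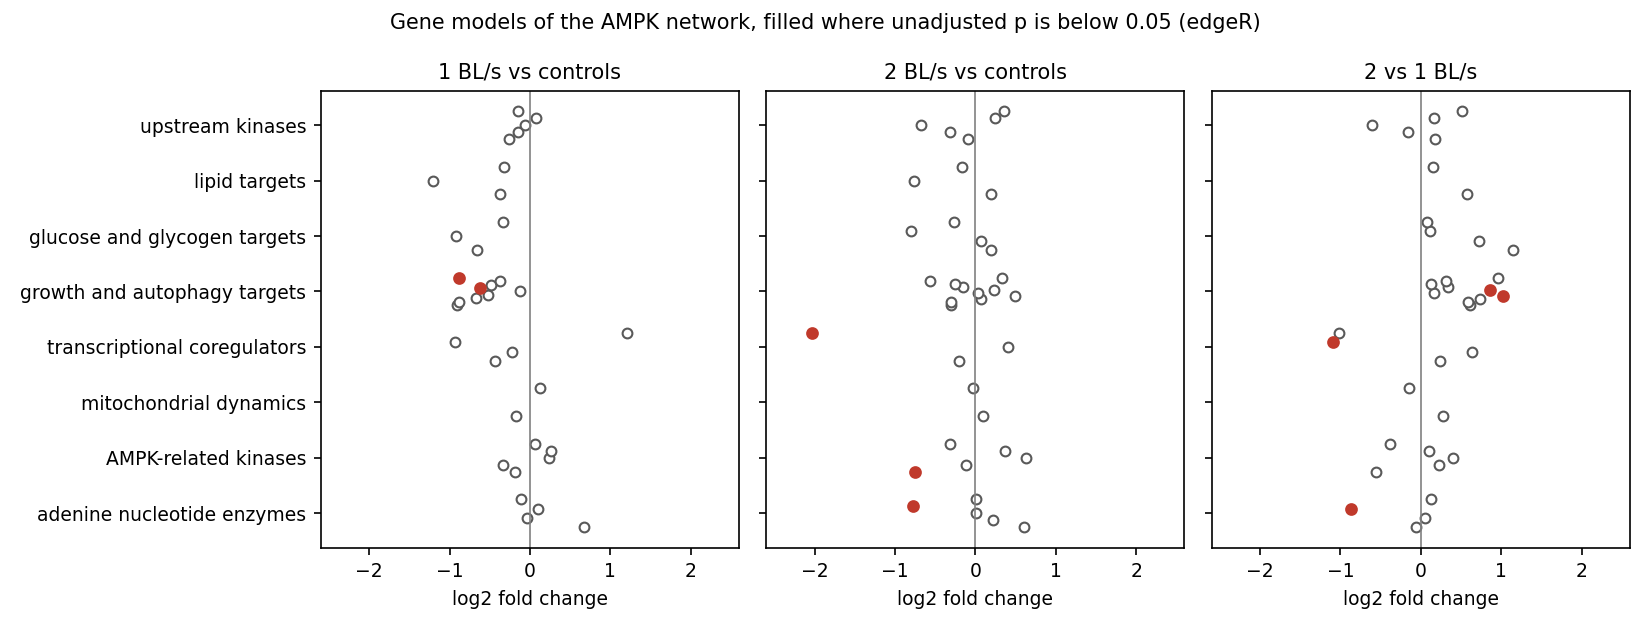
Log2 fold changes (x axis) of the tested gene models of the AMPK network by role (y axis, 8 roles) in the 3 pairwise comparisons. Each point is 1 gene model, filled where the unadjusted p was below 0.05 by edgeR, and the filled points number 2, 3 and 4 from the left.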

How the data were processed

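Stranded mRNA libraries were made from the white muscle of 9 fish. Per the paper's methods and the submitters' notes, the authors aligned the read pairs with TopHat2 2.0.13 and dropped secondary alignments with SAMtools 1.2. The counting was by HTSeq 0.6.1p1 and the comparison by DESeq. The paper points to a seabream assembly at NCBI by a link, without naming the build. Sources used here do not give the strand setting or the treatment of ambiguous reads. The deposited counts are whole numbers of fragments for each gene model and fish, without normalization. The tables also hold the authors' means, fold changes and p-values, and 2 columns without a sample label, none of which was used. Counts of the same fish were equal between tables.

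Tests used the counts with edgeR 4.0.16 under R 4.3.3 (quasi-likelihood, TMM, filterByExpr with a minimum count of 10) on the 6 fish of each comparison, and on all 9 fish for a slope along the order of flow (minimal flow, 1 and 2 BL s-1). P-values were adjusted by Benjamini-Hochberg over all gene models tested. The standard error is the log2 fold change divided by the square root of F. P-values measure the spread between fish of 1 tank per group. Alternatives were DESeq2 1.42.0 and its size factors, limma 3.58.1, no filter, all 9 fish in 1 fit, a replicate block and each fish left out. Log2 values for likeness used a prior count of 2. Python 3.11.15 with pandas 2.3.3, numpy 2.4.6, scipy 1.17.1 and matplotlib 3.10.9 made the other steps.

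The members and the lists, which are regular expressions on the descriptions, were chosen with earlier results of these data known, and 1 chromatin factor matched by its name was removed. Named genes were every subunit with a count and, of the network, each model past the unadjusted threshold in a pairwise comparison and the most abundant of each role, and the 5 models most like Sa_29221.2.1. No sequences were at hand for these models.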

Additional observations from a re-analysis of the deposited data

Results flagged for a closer look

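The gamma-1-like model Sa_29221.2.1 and its partner Sa_29221.2.3 are singled out because their difference from the controls was not the same at both speeds, by the direct test of 2 vs. 1 BL s-1. Sa_29221.2.1 had a log2 fold change of -1.18 between the speeds and Sa_29221.2.3 one of 0.62 (unadjusted p = 0.0310, adjusted p = 0.897 by edgeR). Sa_29221.2.1 had been listed by the study for its high values in the same fish at 1 BL s-1, so its difference is a description only. Each of the 2 lost the unadjusted threshold in 4 of the 6 fits with a fish left out, and 168 of 3963 gene models passed the same unadjusted threshold.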

How the results depend on the processing

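Without the low-count filter 527, 565 and 633 gene models passed the unadjusted threshold in the comparisons of 1 BL s-1 vs. controls, 2 BL s-1 vs. controls and 2 vs. 1 BL s-1, and 743 along the order of flow. Of AMPK models 1 then passed at 2 BL s-1 vs. controls and 1 along the order of flow, Sa_12942.3.12 in both. At 2 vs. 1 BL s-1, 1 AMPK model passed with DESeq2. Samples with the same number in the labels did not deviate together (correlations of -0.03 to 0.18, not over 0.1 in every pair of any comparison), and with the replicate block 1 AMPK model passed at 2 vs. 1 BL s-1, and the log2 fold change changed sign for Sa_9127.5.1 at 2 BL s-1 vs. controls (0.16) and along the order of flow (0.080) and for Sa_29221.2.1 along the order of flow (-0.0059). The block also lost the calls of Sa_29221.2.3 at 2 vs. 1 BL s-1, of sestrin-3-like and hamartin-like at 1 BL s-1 vs. controls, and of PGC-1alpha and MAP microtubule affinity-regulating kinase 3 at 2 BL s-1 vs. controls. With limma-trend Sa_9127.5.1 was at 0.47 and 0.23 in the same comparisons.

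With any one fish left out, 1 to 2 AMPK models passed at 1 BL s-1 vs. controls, 0 to 1 at 2 BL s-1 vs. controls, 0 to 1 at 2 vs. 1 BL s-1 and 0 to 1 along the order of flow. Over all gene models these ranges were 125 to 229, 117 to 273, 120 to 299 and 106 to 261. The AMPK model that passed along the order of flow was Sa_12942.3.12, which was lower. The 273 came without fish 1 at 2 BL s-1, the 117 without fish 3 at 2 BL s-1, the 299 without fish 1 at 1 BL s-1 and the 261 without fish 3 at 1 BL s-1. The sign of the log2 fold change turned within these ranges for alpha-1 at 1 BL s-1 vs. controls (-0.22 to 0.41), 2 BL s-1 vs. controls (-0.48 to 0.14), 2 vs. 1 BL s-1 (-0.51 to 0.035) and the order of flow (-0.25 to 0.032), for Sa_29221.2.1 at 2 BL s-1 vs. controls (-0.54 to 0.43) and the order of flow (-0.14 to 0.31), and for Sa_9127.5.1 in the same pair (-0.63 to 0.47 and -0.28 to 0.27). The causes were not tested. Few counts limit the alpha and beta subunits.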

Other observations

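The gene models whose log2 values ran most like Sa_29221.2.3 over the 9 fish were E3 ubiquitin- ligase SHPRH (r = 0.95), flocculation FLO11-like (0.90), keratinocyte-associated transmembrane 2 (0.89), uveal autoantigen with coiled-coil domains and ankyrin repeats isoform X2 (0.89) and TSC22 domain family 1-like (0.87). Keratinocyte-associated transmembrane 2 had 115, 172 and 128 normalized counts in the control fish, 100.1, 175 and 112 at 1 BL s-1 and 200.1, 126 and 184 at 2 BL s-1.

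Control fish 2, whose gamma-1-like isoform X1 counts fell on Sa_12942.3.12, was also the highest of the 9 fish in PGC-1alpha (219 normalized counts), thioredoxin-interacting (1751) and the muscle isoform of carnitine O-palmitoyltransferase (992). These genes were put side by side after their values had been seen, and no test was made.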
